A study of Bos taurus with 12 samples.

Results

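Of the 2712 rows in the deposited small RNA table, 2072 carry an Ensembl bovine gene identifier rather than a miRBase precursor identifier. Of these, 471 were detected steadily across the 12 libraries and are the members described here. An Ensembl row was counted as steadily detected when it held a value other than 0 and when its lowest value occurred in 1 library only, within a tolerance of 3e-06 on the log2 scale. A row that met this rule was at the detection floor in at most 1 library. Of the other Ensembl rows, 1189 held 0 in every library and 412 varied but repeated their lowest value. The same rule took 295 of the 640 miRBase rows, which served as the comparison.

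Small RNA was sequenced from longissimus muscle biopsies of Angus-cross steers by one sire, all fed a high concentrate diet, to follow changes with time-on-concentrates (TOC) during intramuscular fat deposition. Each of 4 steers was sampled at d 0, d 92 and d 124, which gave 4 libraries per time and 12 libraries in all. The 4 steers were those nearest the mean intramuscular fat content of a larger group, and there were no steers kept off concentrates. Biopsies came from the left side at rib 11 on d 0, the right side at rib 11 on d 92 and the left side at rib 12 on d 124, so biopsy site, age and TOC cannot be told apart. Values were log2, quantile normalized and centred on the row median, and they carry no read counts, so the depth behind a single value is unknown and no counting error is given. Levels given below were recovered from these deviations by matching levels that libraries share, on the scale where the floor is 0. The base of the logarithm was read from the values and is not stated in the sources used here, so fold values rest on base 2. In a whole biopsy, fewer cells of a type and less RNA per cell cannot be told apart.

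Small RNA genes in the Ensembl annotation of a mammal include small nuclear RNAs, which take part in splicing, and small nucleolar RNAs, which guide the chemical modification of ribosomal RNA. They also include ribosomal RNA copies, Y RNAs and other cytoplasmic RNAs, and predicted microRNA hairpins. Most of these RNAs are longer than a mature miRNA, and a short read from one of them can be a fragment of the full RNA. Many of them are present in large families of near-identical copies, and reads can then be shared between family members. The table pairs none of the Ensembl identifiers with a name, and the RefSeq table used here (assembly ARS-UCD2.0) matched 0 of them. The class of each of the 471 rows was therefore not determined, and they are counted rather than grouped by function.

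The Ensembl rows covered nearly the same range of levels as the miRBase rows but were lower at the centre. A level was recovered for 466 of the 471, and their median levels over the 12 libraries ran from 1.32 to 14.31 (log2). The middle of that range was 5.88, with quartiles of 4.01 and 8.60. The miRBase rows of the same rule had a median of 8.09 and reached 15.65 (n = 291 with a recovered level). The Ensembl row of the highest mean level stayed between 14.06 and 15.45 in all 12 libraries, and the next one between 13.44 and 14.71. At the lower end, 43 Ensembl rows were at the floor in 1 library, and their median level was 2.10, whereas 423 were above the floor in every library. As a description of the rule's limit, the 5 rows nearest to it inside had a gap of 0.0012 to 0.0030 between the lowest and the next library. Just outside it lay 31 Ensembl rows whose lowest value was shared by 2 libraries, and in 29 of them that value was the floor.

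The d 0 biopsies of steers 1 and 4 stood apart from the other libraries, and the median differences from d 0 changed sign when both were left out. The median deviation of the 471 Ensembl rows from their own row medians was -0.21 and -0.38 (log2) in these libraries. In the d 0 libraries of steers 2 and 3 it was 0.09 and 0.10. At d 92 the medians of the 4 steers were -0.02, 0.05, 0.02 and -0.04, and at d 124 they were 0.15, 0.03, -0.08 and -0.07. The d 0 mean was -0.10 ± 0.24 (SD, n = 4), against 0.00 ± 0.04 at d 92 and 0.01 ± 0.11 at d 124, so the times overlapped and d 0 had the widest spread. Of the 471 rows, 154 had their lowest value in the d 0 library of steer 4 and 71 in that of steer 1, together 47.8% of the rows in 2 of the 12 libraries. No other library held the lowest value of more than 46 rows. The highest values were most often in the d 0 library of steer 2, with 83 rows, and the d 124 library of steer 1, with 62.

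The miRBase rows moved the opposite way in the same libraries. Their median deviation was 0.25 and 0.52 in the d 0 libraries of steers 1 and 4, and -0.19 and -0.11 in those of steers 2 and 3. The medians of the 2 kinds of row had opposite signs in 11 of 12 libraries, and in the remaining library, steer 3 at d 92, the miRBase median was 0. Quantile normalization gives every library the same set of levels, so where miRBase rows take higher ranks the other rows take lower ones. Levels with the log2 undone were summed over the 1249 varying rows with a recovered level, which leaves out 5 members. The Ensembl rows held 19.5% and 14.5% of this sum in the d 0 libraries of steers 1 and 4, and 27.5% and 24.7% in those of steers 2 and 3. By time, this share was 21.5% ± 5.75 at d 0, 22.7% ± 2.68 at d 92 and 22.2% ± 3.59 at d 124 (SD, n = 4). These means differed by less than the spread between libraries of the same time.

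**Figure D1:**
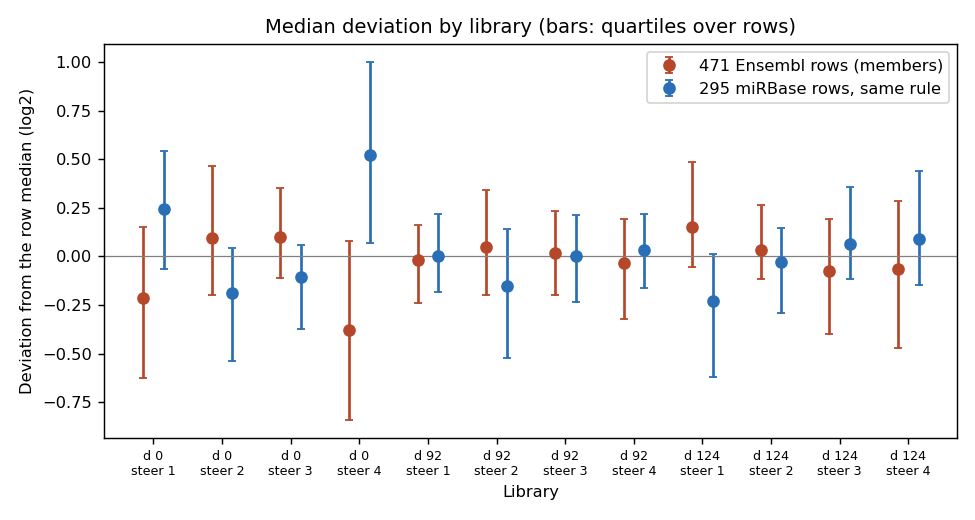
Median deviation from the row median (log2, y axis) in each of the 12 libraries (x axis) for the 471 Ensembl rows and the 295 miRBase rows of the same rule, with bars from the lower to the upper quartile over rows. The Ensembl medians are lowest, at -0.38 and -0.21, in the d 0 libraries of steers 4 and 1, where the miRBase medians are highest.

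Marker miRNAs of blood cells, liver and slow muscle fibres also differed between these libraries. miR-144 and miR-142 are abundant in blood cells, which a biopsy can hold, miR-122 is abundant in liver, and miR-208b is encoded in a slow myosin heavy chain gene of the muscle fibre itself. All 4 of 4 were detected in every library, and none was at the floor. Each was higher in the d 0 libraries of steers 1 and 4 than in those of steers 2 and 3. For miR-144 these levels were 12.28 and 12.50 against 9.95 and 11.01, and for miR-122 they were 10.23 and 9.89 against 8.01 and 8.14. For miR-142 they were 11.15 and 12.66 against 9.85 and 11.09, and for miR-208b 10.40 and 11.06 against 9.59 and 10.26. The median over the miRBase rows was higher in the same libraries, so this order was not particular to the markers. By time, miR-144 averaged 11.44 ± 1.19 at d 0, 12.98 ± 1.07 at d 92 and 12.82 ± 0.77 at d 124, and miR-142 averaged 11.19 ± 1.15, 12.00 ± 1.05 and 11.71 ± 0.48 (log2, SD, n = 4). In the same order of times, miR-122 averaged 9.07 ± 1.15, 10.53 ± 1.90 and 9.55 ± 0.94, and miR-208b 10.33 ± 0.60, 9.90 ± 0.83 and 9.36 ± 0.20. The part of blood or fibre type in the values of the Ensembl rows was not tested.

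Between d 0 and d 92 no Ensembl row passed the test, and the changes were small and went both ways. With limma over the 1002 rows that lay above their own lowest value in at least 4 libraries, all 471 members among them, 0 of 471 had an adjusted p under 0.05, and the smallest was 0.595. Over all rows tested 0.0% were called. At an unadjusted p under 0.05 there were 22 members (4.67%, beside 4.49% of all rows tested). Leaving out the d 0 library of steer 2 gave 34, and over all rows 65 in place of 45. Of the 22 members, 12 were higher at d 92 (background 2.0%) and 10 lower (background 2.5%). All 4 libraries of d 92 lay above all 4 of d 0 in 3 members (background 0.798%) and below them in 7 (background 1.6%). In every one of the 4 steers, 37 members were higher at d 92 (background 4.99%) and 22 were lower (background 5.79%). The median difference over the 471 members was 0.08 (log2), with 281 of them above 0 (59.7%, beside 49.7% of all rows), while over the miRBase rows it was -0.11. That sign turned without the d 0 libraries of steers 1 and 4, those in which the members were lowest, a choice that by itself lowers the difference. The median over the members was then -0.17, and it was 0.23 with each library centred on the miRBase rows. In the latter fit the 21 members at an unadjusted p split into 16 higher and 5 lower, beside 25 and 16 of all 1002 rows. Without the d 0 libraries of steers 1 and 4 there were 9 higher and 16 lower, beside 32 and 32 of all rows.

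The comparison of d 124 with d 0 held more low p-values, but none passed the adjustment. In limma 0 of 471 members had an adjusted p under 0.05 (0.0% of all rows tested), and the smallest was 0.343. At an unadjusted p under 0.05 there were 39 members (8.28%, beside 8.08% of all rows), so their number was close to the background. Their direction was uneven, with 30 higher at d 124 (6.37%, background 4.29%) and 9 lower (1.91%, background 3.79%). The miRBase rows of the same rule split the other way, with 4 higher and 25 lower. The 4 libraries of d 124 lay above those of d 0 in 16 members (background 1.6%) and below in 9 (background 1.9%), and among the miRBase rows in 0 and 9. In every steer, 51 members were higher (background 6.19%) and 21 lower (background 6.09%). The median difference was 0.09 over the members, with 277 above 0 (58.8%, beside 50.2% of all rows), and ran from -0.60 at the 5th percentile to 0.97 at the 95th.

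The direction of these counts rested on the same d 0 libraries. Without both of them, 28 members were higher (background 5.79%) and 45 lower (background 5.59%) at an unadjusted p, and the median difference was -0.14. Leaving out the d 0 library of steer 4 alone gave 23 higher (background 3.19%) and 20 lower (background 3.49%), with a median difference of -0.02. When the d 0 library of steer 2 or of steer 3 was left out instead, the median difference was 0.17 and 0.19. With each library centred on the miRBase rows, 49 members were higher (background 6.29%) and 2 lower (background 2.1%), with a median difference of 0.24.

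Between d 92 and d 124 most low p-values of the members lay on the higher side. The difference itself uses no d 0 library, but the spread in limma was estimated over all 12 libraries. In limma 0 of 471 passed the adjusted threshold (0.0% of all rows tested), with 0.755 as the smallest adjusted p of a member. At an unadjusted p under 0.05, 27 members were found (5.73%, beside 3.79% of all rows). Of these 25 were higher at d 124 (5.31%, background 3.19%) and 2 lower (0.425%, background 0.599%), and of the miRBase rows of the same rule 1 was higher and 1 lower. The differences of the 25 ran from 0.51 to 2.01 with a median of 0.83, and their median levels from 2.05 to 8.39. Of the 25, 20 had a lower mean at d 92 than at d 0. Only 10 were also higher at d 124 than at d 0 at an unadjusted p under 0.05 in limma. Selection by this difference favours rows with low d 92 values, so these counts are descriptions. Every d 124 library lay above every d 92 library in 19 members (background 2.1%) and below in 7 (background 1.2%), and among the miRBase rows in 0 and 4. In all 4 steers, 48 members were higher (background 5.89%) and 29 lower (background 5.99%). Over all members the median difference was 0.00, with 237 of 471 above 0 (50.3%, beside 50.7% of all rows). Without the d 124 library of steer 3 the number at an unadjusted p was 17 rather than 27, and over all 1002 rows it was 28 rather than 38. Without the d 0 libraries of steers 1 and 4, which enter through the spread only, 26 members were higher and 12 lower, beside 34 and 18 of all 1002 rows. With only the d 0 library of steer 4 left out these were 26 and 5 members (33 and 11 of all rows), and without the d 124 library of steer 1 they were 26 and 9 members (40 and 16 of all rows).

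**Figure D2:**
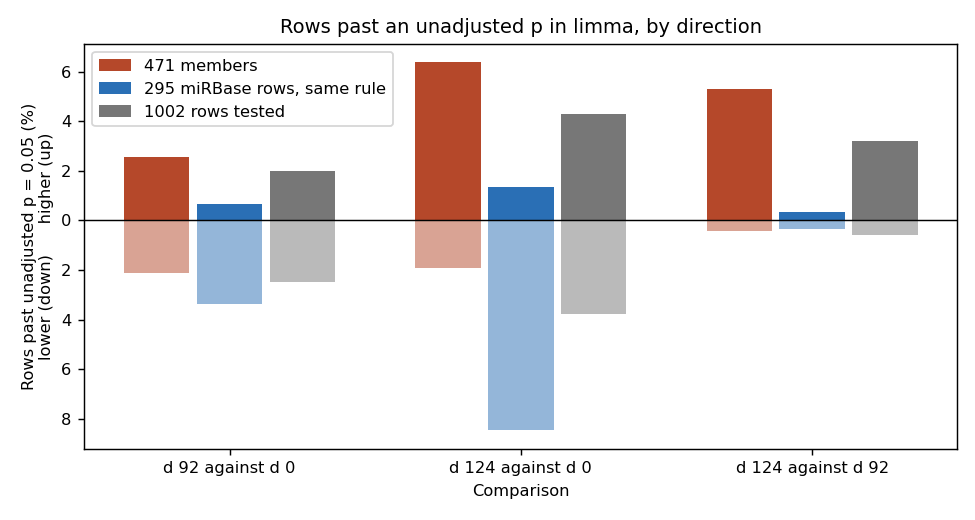
Percent of rows past an unadjusted p of 0.05 in limma (y axis), higher at the later time above 0 and lower, in a lighter shade, below 0, for the 471 Ensembl rows, the 295 miRBase rows of the same rule and all 1002 rows tested, in the 3 comparisons (x axis). No row passed after adjustment, and for d 124 against d 92 the Ensembl rows stand at 5.31% higher and 0.425% lower.

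Tested over the 3 times at once, limma again gave 0 members with an adjusted p under 0.05 (0.0% of all rows tested) and 31 at an unadjusted p under 0.05 (background 5.49%), and the smallest adjusted p of a member was 0.579. The same fit without moderation of the spread, in which each row is judged by its own residual spread only, called 1 member, which was also the 1 row called among the 1002 (0.0998%). This row, ENSBTAG00000042680, was singled out after its values were seen. Its levels were 6.35, 6.42, 6.22 and 6.28 at d 0 in steers 1 to 4, and 6.20, 6.26, 6.31 and 6.13 at d 92. At d 124 they were 7.04, 7.02, 6.93 and 6.94. The d 124 libraries were all higher than the other 8, with no overlap, and d 0 and d 92 overlapped.

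The mean of ENSBTAG00000042680 was 6.32 ± 0.09 at d 0, 6.23 ± 0.08 at d 92 and 6.98 ± 0.05 at d 124 (log2, SD, n = 4). The difference of d 124 from d 0 was 0.66, or 1.58-fold, and from d 92 it was 0.76, or 1.69-fold. Its pooled SD of 0.075 was the lowest of the 471, and time held 96.4% of its variation. Without moderation its adjusted p was 0.000311 over the 3 times, 0.000538 for d 124 against d 0 and 0.000173 for d 124 against d 92. In limma, which draws a low spread towards that of other rows, the adjusted p was 0.755, 0.544 and 0.937. Without the trend and robust settings of limma it was 0.395 for d 124 against d 0 and 0.438 for d 124 against d 92. An exact permutation test over the 34650 regroupings of 12 libraries into 3 times gave p = 0.00104. The row was chosen by these same values and the regroupings ignore steer, so this p is a description. It does not pass over 1002 rows, since the smallest p this design allows, 0.000173, would be 0.174 after adjustment.

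The members of the smallest limma p for d 124 against d 0 were taken by rule, a pair in each direction. On the higher side the leading row was ENSBTAG00000042871, with levels of 5.03, 5.76, 5.25 and 4.80 at d 0. At d 92 they were 5.25, 6.51, 5.21 and 5.75, and at d 124 they were 6.45, 6.48, 6.42 and 6.54. All d 124 libraries lay above all d 0 libraries, and the d 124 values were close together while those of d 0 were not. The difference of d 124 from d 0 was 1.26 ± 0.30 (SE, 2.39-fold), higher in 4 of 4 steers, with an adjusted p of 0.343 in limma. Between d 0 and d 92 it was 0.47 with overlapping libraries, and between d 92 and d 124 it was 0.79, also with overlap.

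The other row on the higher side had levels of 2.44, 2.90, 3.28 and 2.98 at d 0. Its levels were 3.79, 4.42, 3.19 and 3.71 at d 92 and 3.93, 4.38, 4.46 and 3.63 at d 124. Here d 92 and d 124 overlapped, and both stood above d 0 except for steer 3 at d 92. The differences from d 0 were 0.88 at d 92 and 1.20 ± 0.32 (SE) at d 124, the latter with an adjusted p of 0.343 in limma.

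On the lower side the leading row was ENSBTAG00000044968, one of the rows near the floor. It had levels of 3.37, 1.74, 3.10 and 1.81 at d 0, and of 1.79, 1.90, 1.30 and 3.12 at d 92. At d 124 the levels were 0.77, 1.06, 0 and 0.61, where 0 is the floor. All 4 steers were lower at d 124 than at either earlier time, and the d 124 libraries did not overlap with the others. The difference was -1.90 ± 0.44 (SE) from d 0, with an adjusted p of 0.343 in limma, and -1.42 from d 92, with an adjusted p of 0.755.

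The other row on the lower side differed mainly between d 0 and d 92, with levels of 5.27, 5.73, 5.05 and 5.41 at d 0 and of 4.65, 4.02, 4.98 and 4.71 at d 92. At d 124 its levels were 4.78, 4.73, 3.93 and 4.78. Every library at d 92 and d 124 was below every d 0 library. The differences from d 0 were -0.78 at d 92 and -0.81 ± 0.29 (SE) at d 124, with adjusted p of 0.854 and 0.544 in limma. These 4 rows were chosen for their p in the same comparison, so their separation between d 0 and d 124 is a description.

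A further row, ENSBTAG00000043054, was chosen after its values were seen, because it was the 1 member called in any limma fit with 1 library left out. Its levels at d 0 were 4.33, 5.81, 4.60 and, in steer 4, 0, the floor. They were 4.43, 3.88, 4.14 and 3.83 at d 92 and 2.98, 2.60, 2.71 and 1.64 at d 124. The d 124 libraries were below all d 92 libraries, and without steer 4 the d 0 libraries were above those of d 124 too. The d 0 and d 92 libraries overlapped with or without steer 4. The difference of d 124 from d 92 was -1.59, with an adjusted p of 0.988 in limma, and from d 0 it was -1.20, with an adjusted p of 0.819. Without the d 0 library of steer 4 the latter was -2.43, with an adjusted p of 0.0479 in limma.

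**Figure D3:**
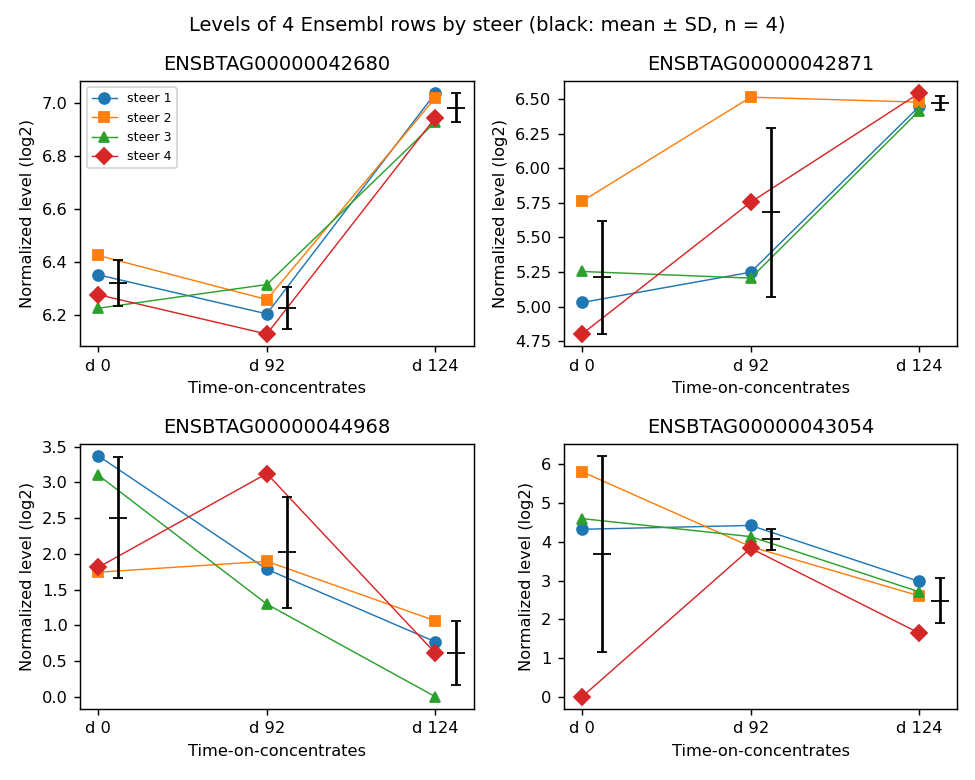
Normalized level (log2, y axis, a separate scale in each panel) at d 0, d 92 and d 124 (x axis) of 4 Ensembl rows, with 1 coloured line per steer and black bars for the mean ± SD of 4 libraries. ENSBTAG00000042680 is between 6.93 and 7.04 in the 4 libraries of d 124 and between 6.13 and 6.42 in the other 8, and ENSBTAG00000043054 is at the floor of 0 in steer 4 at d 0.

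The spread between libraries of the same time was similar for Ensembl and miRBase rows. The pooled SD within time had a median of 0.494 (log2) over the 471 members, with quartiles of 0.372 and 0.671, against 0.481 over the miRBase rows. It was widest for rows of low level. Members with a median level under 4 had a median SD of 0.808 (n = 115), beside 0.954 for miRBase rows (n = 55). From 4 to 6 it was 0.481 beside 0.528, from 6 to 9 it was 0.414 beside 0.489, and from 9 upwards it was 0.442 (n = 98) beside 0.403 (n = 118). By time, the median SD of the members was 0.565 at d 0, 0.375 at d 92 and 0.433 at d 124, beside 0.551, 0.398 and 0.395 for the miRBase rows. These values are descriptions, since the rule that chose the rows bears on their spread.

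Single libraries set the largest spreads. The member of the highest pooled SD, 2.35, deviated by -7.96 from its row median in the d 124 library of steer 2 and lay between -0.87 and 0.47 in the other 11. Its level was not recovered. The next was ENSBTAG00000043054, with 1.51, through its floor value at d 0, and the one after it, with 1.40, was at the floor in steer 4 at d 124 and between 0.95 and 4.38 elsewhere. At the other end, the member of the second lowest pooled SD, 0.119, held levels from 7.35 to 8.10 in the 12 libraries.

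Steer held more of the variation of the members than time did, although steer also has more degrees of freedom. The median share of the variation of a member was 14.3% by time, 29.6% by steer and 47.9% by the remainder. The degrees of freedom alone would give mean shares of 18.2%, 27.3% and 54.5%. A median of uneven shares can differ from such a mean without any effect, so these medians do not show more or less than that. The share by steer was larger than that by time in 322 of 471 members and in 220 of the 295 miRBase rows, so this was not particular to the members. Over 50% of the variation was by time in 35 members and by steer in 89, a count that was not made for the miRBase rows. In the miRBase rows the medians were 12.5% by time and 32.8% by steer.

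**Figure D4:**
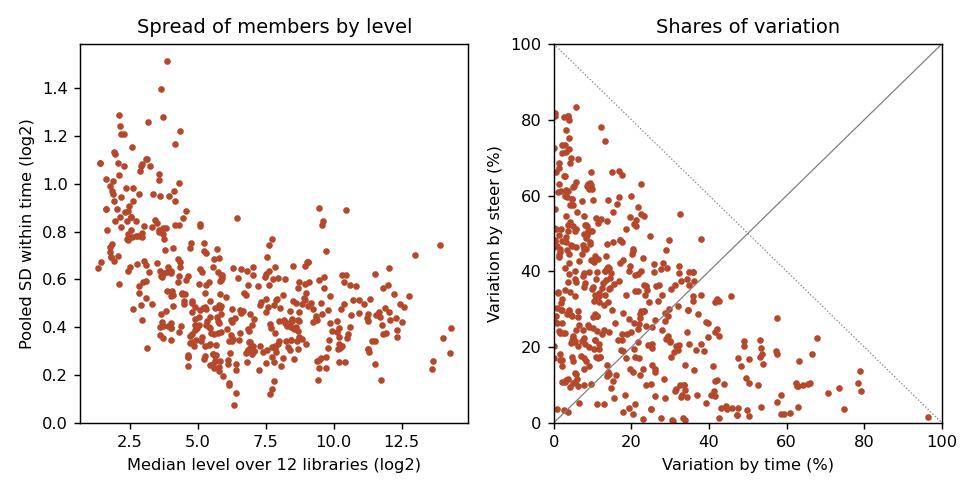
Left, pooled SD within time (log2, y axis) against the median level over 12 libraries (log2, x axis) of the 466 Ensembl rows with a recovered level; right, percent of each of the 471 rows' variation held by steer (y axis) against that held by time (x axis), with a solid line where both are equal and a dotted line where they sum to all of it. The spread is widest under a level of 4, and 322 rows lie above the solid line.

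Most members varied against the miRBase rows from library to library. The likeness of each member to the miRBase rows was taken as Pearson's r between its 12 values and the 12 library medians of the 295 miRBase rows. These 12 points come from 4 steers and share the quantile normalization, so r is given as a description. It was below 0 in 324 of 471 members (68.8%), with a median of -0.34 and a range from -0.96 to 0.80. It was under -0.5 in 191 members and under -0.9 in 24, and over 0.5 in 30. Of the miRBase rows, 46 (15.6%) had an r below 0 to their own median, and their median r was 0.50. These rows make up that median, so their r leans above 0 by construction and is not a like comparison. Without the d 0 libraries of steers 1 and 4 the median r of the members was -0.24. Pair by pair the relation was loose, with a median r of -0.12 between a member and a miRBase row, 0.07 between a pair of members and 0.18 between a pair of miRBase rows.

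The members did not vary as a single block. The first principal axis held 26.9% of the variation of the members, and that of the miRBase rows 24.97%. The row most like a member was another member in 395 of 471. Members also outnumber the miRBase rows, with 471 beside 295, and 16 members have values equal to those of another member. Both raise this count. Linking members with r over 0.9 to each other gave one group of 108 (22.9%), a next group of only 5, and 268 members linked to none. The group of 108 had a median level of 9.40, above the 5.88 of all members. Its library medians at d 0 were -0.39, 0.58, 0.23 and -0.88 in steers 1 to 4, a wider swing than that of all members in the same libraries. At d 92 they were 0.03, 0.37, 0.05 and -0.19, and at d 124 they were 0.39, 0.00, -0.32 and -0.32. The group was linked by r over these same libraries, so its wider swing follows in part from how it was made.

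The sign of the likeness differed with the Ensembl number of the row, a split that was made after the data were seen. Ensembl numbers are given out in blocks, so genes annotated together have numbers near each other. Of the 53 members with a number below 42000, 34.0% had an r below 0 to the miRBase rows, with a median of 0.11. Of the 418 with a number from 42000, 73.2% had one, with a median of -0.41. In the d 0 libraries of steers 1 to 4 the medians were 0.16, -0.23, -0.03 and 0.04 for the lower numbers and -0.24, 0.15, 0.11 and -0.43 for the higher ones.

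**Figure D5:**
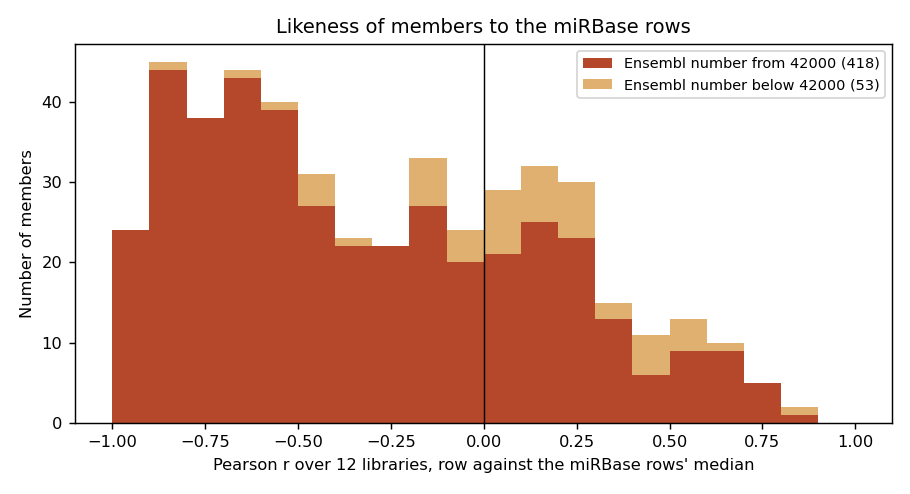
Number of Ensembl rows (y axis) by Pearson's r over the 12 libraries between the row and the median of the 295 miRBase rows (x axis), stacked by Ensembl number below 42000 (53 rows) or from 42000 (418 rows). In all, 324 of the 471 rows lie below 0, with 24 under -0.9.

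A few members repeated the values of other rows. In 8 pairs, 16 members in all, the 12 values of a pair were equal within 3e-06, so that each pair gives 1 measurement and not a pair of independent ones. Against the miRBase rows, 3 members reached an r of 0.99 or more, and in each of them all 12 libraries were within 0.1 of the miRBase row. One of the 3 equalled its miRBase row in 11 libraries, with a difference of 0.026 in the remaining one. Whether such rows are the same locus under both annotations was not tested. These rows count among the 471 and are not independent of the miRBase rows.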

How the data were processed

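The authors sequenced small RNA of 12 muscle biopsies, mapped the reads in StrandNGS against bosTau4 and applied its quantile normalization. The deposited values were taken as log2, with the median of each row over the 12 libraries subtracted. Counts were not used here, so counting error has no estimate. Levels were recovered by matching the levels that quantile normalization makes libraries share, with the floor of 1 set to 0 on the log2 scale. This gave a level for 1249 of 1314 rows that vary, and was tested on simulated data, as was the model fit.

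Members, lists and comparisons were chosen with earlier results of these data known. Rows above their own lowest value in at least 4 libraries were tested (1002). limma 3.58.1 (R 4.3.3), with trend and robust settings and time as the factor, gave the differences, and Benjamini-Hochberg adjustment ran over the 1002 rows with a threshold of 0.05. The trend setting used the mean of the centred values of a row, which is not its level. A fit without moderation of the spread was added after the data were seen. The row called by that fit had an exact permutation test over the 3 times, given as a description only. For rows chosen by their p in a comparison, exact tests of single comparisons are not given, since the choice used the same values. p-values reflect the spread between the 4 libraries of a time, each from a different steer, pooled over the 3 times. That spread holds differences between biopsies and libraries as well as between steers.

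Replicate numbers mark the same steer, as the sample codes in the labels show, and the codes of d 92 read d90. After removal of the time means, libraries of one steer correlated over rows with a median r of 0.09 (-0.09 to 0.22, 12 pairs), beside -0.03 for 36 other pairs. The study's model has no steer term, so steer entered as a block in an alternative. Named rows were the 2 of the smallest p on each side of the d 124 against d 0 comparison. At most 4 identifiers are printed, since no table pairs them with names: the leading row on each side, and 2 rows chosen after their values were seen. No sequence was printed. Alternatives were centring on miRBase rows, log2(value + 10), other limits on the lowest value, Spearman's rho and leaving out libraries.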

Additional observations from a re-analysis of the deposited data

Results flagged for a closer look

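The unnamed row on the lower side of the d 124 against d 0 comparison had 1 library far from the others at d 124. Its level was 3.93 (log2) in steer 3 and between 4.73 and 4.78 in the other 3 steers, a gap of 93.8% of the range. Groups of 4 libraries were examined 27 times in this way, with 1 past the 95% limit of Dixon's ratio, and chance alone passes about 1 in 20. Without this library the difference of d 124 from d 92 was 0.17 in place of -0.03.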

How the results depend on the processing

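With the replicate block for steer, 25, 45 and 26 members had an unadjusted p under 0.05 for d 92 against d 0, d 124 against d 0 and d 124 against d 92, and 33 over the 3 times (57, 91, 40 and 61 of all 1002 rows), and the pairing changed no call at an adjusted p. Without the d 0 libraries of steers 1 and 4, chosen after the data were seen, the numbers were 73 for d 124 against d 0 and 59 over the 3 times (114 and 81 of all rows). Without moderation of the spread, 1 member each was called at an adjusted p for d 124 against d 0, d 124 against d 92 and the 3 times. Leaving out each library in turn gave 15 to 34 (d 92 against d 0, 34 without steer 2 at d 0), 27 to 51 (d 124 against d 0), 17 to 35 (d 124 against d 92) and 21 to 42 (3 times) members at an unadjusted p, beside 37 to 65, 59 to 94, 28 to 56 and 45 to 72 of all rows, and 0 to 1 members at an adjusted p for d 124 against d 0. It gave a median r to the miRBase rows of -0.37 to -0.30, a first axis of 24.2% to 29.7% and a median pooled SD of 0.451 to 0.509.

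Centring on the miRBase rows gave a median pooled SD of 0.617 and a first axis of 42.4%, and log2(value + 10) gave 0.357 and 39.8%. That centring sets the miRBase median to 0, so no r was computed under it. Allowing 2 libraries at the lowest value gave a median r of -0.31 and a first axis of 24.8%, and allowing none at the floor gave -0.37 and 33.4%. The median r was -0.24 without the d 0 libraries of steers 1 and 4, and Spearman's rho had a median of -0.29. The d 92 minus d 0 difference of ENSBTAG00000042680 turned from -0.09 to 0.054 with centring. That of ENSBTAG00000043054, 0.38, turned to -0.13 with log2(value + 10), -0.84 without steer 4 at d 0 and -1.14 without steers 1 and 4, and ran from -0.84 to 1.09 with 1 library left out. The d 124 minus d 92 difference of the unnamed lower row, -0.03, turned to 0.09 and 0.01 without steers 3 and 4 at d 92 and to 0.17 without steer 3 at d 124, and ran from -0.22 to 0.17 with 1 library left out. The causes were not tested.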
